A study of Mus musculus with 12 samples.

Results

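The CDK inhibitors described here are 6 genes, Cdkn1b, Cdkn1c, Cdkn2a, Cdkn2b, Cdkn2c and Cdkn2d, read by every probe set of the value table whose only gene symbol was one of these names. They amounted to 7 probe sets of the 21789 with a single symbol, and to 6 of the 19938 genes those represent, because Cdkn1b had 2 probe sets. The rule reads gene symbols and no measured value, but the members were chosen with earlier results of these data known. The probe set of Cdkn1a, which encodes the related inhibitor p21, carries a further symbol and so fell outside the rule.

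Cyclin-dependent kinases push a cell from one phase of its cycle to the next, and these inhibitors hold them back. The Cip/Kip proteins p27 (Cdkn1b) and p57 (Cdkn1c) bind cyclin and kinase together and can block several complexes, whereas the Ink4 proteins p16 and p15 (Cdkn2a and Cdkn2b), p18 (Cdkn2c) and p19 (Cdkn2d) bind CDK4 and CDK6 and keep D-type cyclins from activating them, which leaves the retinoblastoma protein free to restrain E2F factors. Cdkn2a also encodes ARF in another reading frame, which holds off Mdm2 and so stabilises p53. In skin, p27 and p57 are known from slowly cycling and from differentiating keratinocytes, and the Ink4-Arf locus is known as a target of Polycomb silencing that opens with age and stress.

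Expression was measured on 12 whole-transcript arrays of cells sorted from mouse dorsal skin, with 3 arrays in each of 4 groups and no treatment in any of them. Clock-positive and clock-negative bulge cells were hair follicle stem cells with bright alpha6 integrin and CD34, separated by bright or dim signal of Venus, a fluorescent protein that reports the activity of Per1, a clock gene; they came from mice 18 to 19 days old, and each sample pooled about 20 mice. Wild-type and Bmal1 KO samples held basal cells of the interfollicular epidermis (IFE), the epidermis between the hair follicles, from mice 1 year old, with 5 mice per sample; the knockout allele and any Cre driver are not given in the sources used here. The cell phenotype label of the clock-negative samples names the Venus-high gate as well, so grouping followed the titles. Nothing beyond the pools says how independent the samples of a group are, so p-values measure only the spread between these samples. Values are log2 intensities: a step of 1 is a 2-fold change, and only changes of one probe set within the bulge or within the IFE arrays are compared. Array medians ran from 6.82 to 6.84 in clock-positive and from 6.94 to 7.01 in clock-negative cells, and from 7.75 to 7.80 in the IFE arrays.

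The labels were checked first. Arntl, the gene of Bmal1, read 9.27, 9.47 and 9.34 on the wild-type arrays and 9.85, 9.60 and 9.55 on the KO arrays (log2 change 0.30 ± 0.12 SE, n = 3 per group, limma adjusted p = 0.53). Whether its probes lie in the deleted part was not analysed here, so this reading checks nothing. Nr1d1, a repressor that Bmal1 drives, fell by 3.98 ± 0.12 in KO cells, from 12.28, 12.52 and 12.60 to 8.63, 8.39 and 8.44 (limma adjusted p = 1.08e-05). Per1 was not called between KO and wild-type cells, at -0.51 (limma adjusted p = 0.844). It read 9.94, 9.68 and 10.42 on the wild-type arrays and 10.30, 9.19 and 9.02 on the KO arrays, with KO array 1 apart from the other KO arrays. Per1 was higher in clock-positive cells by 0.51 ± 0.07 (adjusted p = 0.000195), with 9.77, 9.72 and 9.81 against 9.36, 9.20 and 9.19; with the spread from all 12 arrays it was not called (adjusted p = 0.117). In the same comparison Nr1d1 stood at 0.08 ± 0.06 (adjusted p = 0.298) and Arntl at 0.16 ± 0.07 (adjusted p = 0.047). Basal keratinocyte markers Krt5 and Krt14 lay above the 99th percentile of genes and Itga6 above the 95th on each of the 12 arrays. The bulge marker Cd34 was above the 91st percentile on every bulge array. Its level nevertheless differed between the bulge groups, with 10.98, 10.95 and 10.98 in clock-positive against 9.55, 9.44 and 9.58 in clock-negative cells. That change was 1.45 (limma adjusted p = 2.80e-07), and its part in the values of the inhibitors was not tested.

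Sequences around start sites of Cdkn1b, Cdkn2d and Cdkn2c are shown because clock proteins and cell cycle factors act through short motifs near start sites. RefSeq's promoter table for GRCm38.p6 held 7 start sites for 5 of the 6 members, and no entry for Cdkn1c. The 250 bases before the start of Cdkn1b lie at chr6:134920151-134920400 on the plus strand and those of Cdkn2d at chr9:21291210-21291459 on the minus strand; capitals mark GGGCGG, the Sp1 motif, or its reverse complement. Cdkn2c has 2 start sites, and the one further downstream was the only member entry with a clock motif, so 30 bases around each match are given, at chr4:109665535-109665564 for the ROR element and at chr4:109665323-109665352 for the E-box, both on the minus strand with the match in capitals.
Cdkn1b promoter: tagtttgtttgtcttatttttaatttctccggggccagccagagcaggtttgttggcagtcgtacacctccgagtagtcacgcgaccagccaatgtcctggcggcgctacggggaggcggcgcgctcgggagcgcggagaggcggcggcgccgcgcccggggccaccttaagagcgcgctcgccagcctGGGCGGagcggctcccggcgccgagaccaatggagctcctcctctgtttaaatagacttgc
Cdkn2d promoter: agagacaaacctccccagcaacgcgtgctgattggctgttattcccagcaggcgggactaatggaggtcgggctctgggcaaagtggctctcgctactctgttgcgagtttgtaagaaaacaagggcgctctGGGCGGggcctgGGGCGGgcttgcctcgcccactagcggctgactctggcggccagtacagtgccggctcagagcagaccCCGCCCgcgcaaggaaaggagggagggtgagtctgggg
Cdkn2c, ROR element: tgttgtctgagcTGACCTAgtcctttaagt
Cdkn2c, E-box: ttttgctgaataatCACGTGtgaatcgagg

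Motifs were searched on both strands in windows of 300 bases, from 250 before to 50 after the start, and no motif contains another. The E-box CACGTG, which the Bmal1 and Clock pair binds, was found in 1 of the 7 member entries and in 7.15% of the 32851 promoters of that length. It is the one in Cdkn2c, at base 35 after the start. The ROR element TAGGTCA, bound by ROR factors and by Nr1d1, occurred in 1 of 7 entries, 180 bases before that same start, against 2.61% of all promoters. D-box matches (TTANNTAA, 6% of promoters), forkhead matches (GTAAACA, 3.65%) and the E2F motif TTTGGCGC (0.514%) were in 0 of the 7 entries. The other E2F motif, TTTCCCGC (1.07% of promoters), was in 1, a start site of Cdkn2a. The Sp1 motif GGGCGG was in 6 of 7 entries, against 35.7% of all promoters. G and C made up 64.4% of the Cdkn1b stretch and 63.6% of that of Cdkn2d, where the median promoter has 52.4%. The other member entries ran from 42.8%, before the Cdkn2c start site with the clock motifs, to 78.4%, before a start site of Cdkn2a. A match is a description of letters and not a sign of binding.

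The first comparison asks how the inhibitors differ between bulge cells with a bright and a dim Per1 reporter. Cdkn2d and Cdkn1c were higher in clock-positive cells, by 1.48-fold and 1.17-fold, and a second probe set of Cdkn1b was higher by 1.40-fold. The remaining members, Cdkn1b by its main probe set, Cdkn2a, Cdkn2b and Cdkn2c, did not pass the test. Thus 2 of 6 genes were called higher and 0 lower with limma at an adjusted p under 0.05, and 3 of 6 had an unadjusted p under 0.05. Among all 13956 genes tested, 45.2% were called higher and 18.3% lower, 63.5% in all, and 67.8% had an unadjusted p under 0.05, so nothing particular to the members can be read from these counts. After median centring 5 of 6 members were called higher, where 64% of all genes were, and after quantile normalization 2 of 6, where 29.5% were. The median change of the 6 was 0.22, beside 0.15 for all genes. In sorted but mixed cells, fewer cells of a type and less RNA per cell cannot be told apart.

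**Figure D1:**
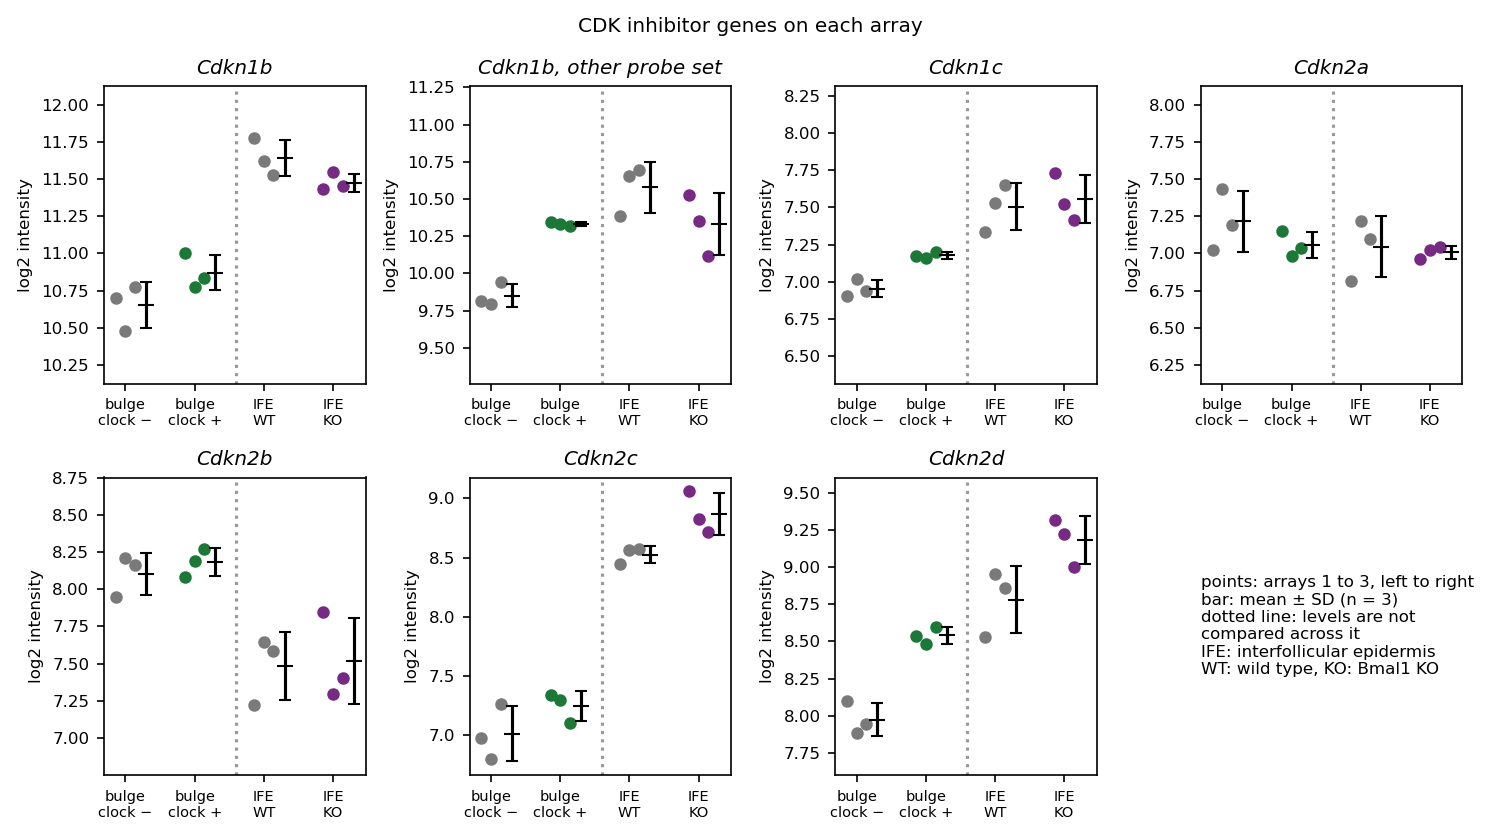
Log2 intensity of each CDK inhibitor probe set on every array, with arrays 1 to 3 of a group from left to right and the mean ± SD (n = 3) beside them. Clock-positive points of Cdkn2d, Cdkn1c and the other Cdkn1b probe set lie above all clock-negative points, and KO points of Cdkn2c and Cdkn2d lie above all wild-type points.

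Of the Cip/Kip genes, Cdkn1b read 10.70, 10.48 and 10.78 on the clock-negative arrays and 11.01, 10.77 and 10.84 on the clock-positive arrays by its brighter probe set. The groups touched, with the lowest clock-positive value just under the highest clock-negative one. The change was 0.22 ± 0.09 (95% interval 0.02 to 0.42), with a limma adjusted p of 0.0532. It was called under 6 of 15 alternatives, among them without clock-negative array 3 (0.28, adjusted p = 0.0395), without clock-positive array 2 (0.27, 0.0461) and with the replicate number as a block (0.0165), whereas without clock-negative array 2 it was 0.13 with an adjusted p of 0.178. Its other probe set read 9.82, 9.80 and 9.94 against 10.35, 10.33 and 10.32. Here the 3 clock-positive values were nearly equal and all lay above the clock-negative ones. That change was 0.48 ± 0.06 (0.34 to 0.62), with a limma adjusted p of 0.000269 in the fit over every probe set. Both probe sets list 1 RefSeq mRNA, where their probes lie on it was not analysed here, and the difference between their changes was not tested.

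Cdkn1c, an imprinted gene expressed from the maternal copy, read 6.91, 7.02 and 6.94 in clock-negative and 7.17, 7.16 and 7.20 in clock-positive cells. Every clock-positive value was above every clock-negative one, and the 3 clock-positive arrays spanned less than the others. The signal was modest: over the bulge arrays its mean level lay above 47.2% of all genes, dim ones included. Cdkn2a and Cdkn2c were at a similar level, above 48.7% and 48.5%. The change of Cdkn1c was 0.22 ± 0.06 (0.09 to 0.36; limma adjusted p = 0.00995). With the spread estimated from all 12 arrays the same change had an adjusted p of 0.0922. After median centring, quantile normalization or cyclic loess it was 0.36, 0.33 and 0.30, and was called under each.

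Among the Ink4 genes, Cdkn2d had the largest change. It read 8.10, 7.88 and 7.94 on the clock-negative arrays and 8.54, 8.48 and 8.60 on the clock-positive arrays. The groups were clearly apart, with no clock-negative array within the clock-positive range. Cdkn2d was higher by 0.57 ± 0.07 (0.40 to 0.73; limma adjusted p = 0.000166), and 94.2% of the genes tested had a smaller or more negative change. It kept its call under all 15 alternatives run, with values from 0.39 after cyclic loess to 0.71 after median centring. With Cdkn1c, it made 2 of 6 genes whose groups did not overlap and were higher in clock-positive cells, a pattern that 50.1% of all genes tested shared.

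Cdkn2c, which encodes p18, read 6.98, 6.80 and 7.27 in clock-negative and 7.34, 7.30 and 7.10 in clock-positive cells. The groups overlapped through clock-negative array 3, the highest of its group, and clock-positive array 3, the lowest of its own. The change was 0.23 ± 0.11 (-0.01 to 0.48; limma adjusted p = 0.0881). Without clock-negative array 3 it was 0.36 with an adjusted p of 0.0144, and without clock-negative array 2, the lowest, it was 0.13 with 0.306. After median centring it was called at 0.37.

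The neighbouring genes Cdkn2a and Cdkn2b, next to each other among coding genes on chromosome 4, were the members with the smallest or negative changes. Cdkn2a read 7.02, 7.43 and 7.19 in clock-negative and 7.15, 6.98 and 7.04 in clock-positive cells. Its probe set lists 2 RefSeq mRNAs, so p16 and ARF transcripts are read together. The groups overlapped, and the change of -0.16 ± 0.10 (-0.37 to 0.06) had a limma adjusted p of 0.177. Without clock-negative array 1, the lowest of that group, it was -0.25 with an adjusted p of 0.0268, and without clock-negative array 2, the highest, it was -0.05 with 0.608.

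Cdkn2b read 7.95, 8.21 and 8.16 in clock-negative and 8.09, 8.19 and 8.27 in clock-positive cells. These ranges lay almost on top of each other. The change was 0.08 ± 0.08 (-0.11 to 0.26; limma adjusted p = 0.422), so a rise of more than 0.26 lay outside the interval. Its sign depended on the setting, with -0.06 after quantile normalization, -0.08 after cyclic loess -0.0020 without clock-negative array 1, and a called 0.22 after median centring.

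Scaling mattered for the bulge arrays as a whole. The median change of all genes tested was 0.15 on the deposited scale, 0.29 after median centring, 0.07 after quantile normalization and 0.04 after cyclic loess. Of all genes, 64% were called higher and 9.71% lower after median centring, 29.5% and 12.2% after quantile normalization, and 25.3% and 15.8% after cyclic loess. Cdkn1b by its main probe set moved with it, at 0.36, 0.13 and 0.06 under the 3 scalings, and passed the threshold only after median centring among these. Its other probe set stayed called at 0.62, 0.34 and 0.29. Relative to the median of all genes on the deposited scale, Cdkn2d stood 0.42 higher and Cdkn1c 0.08 higher.

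**Figure D2:**
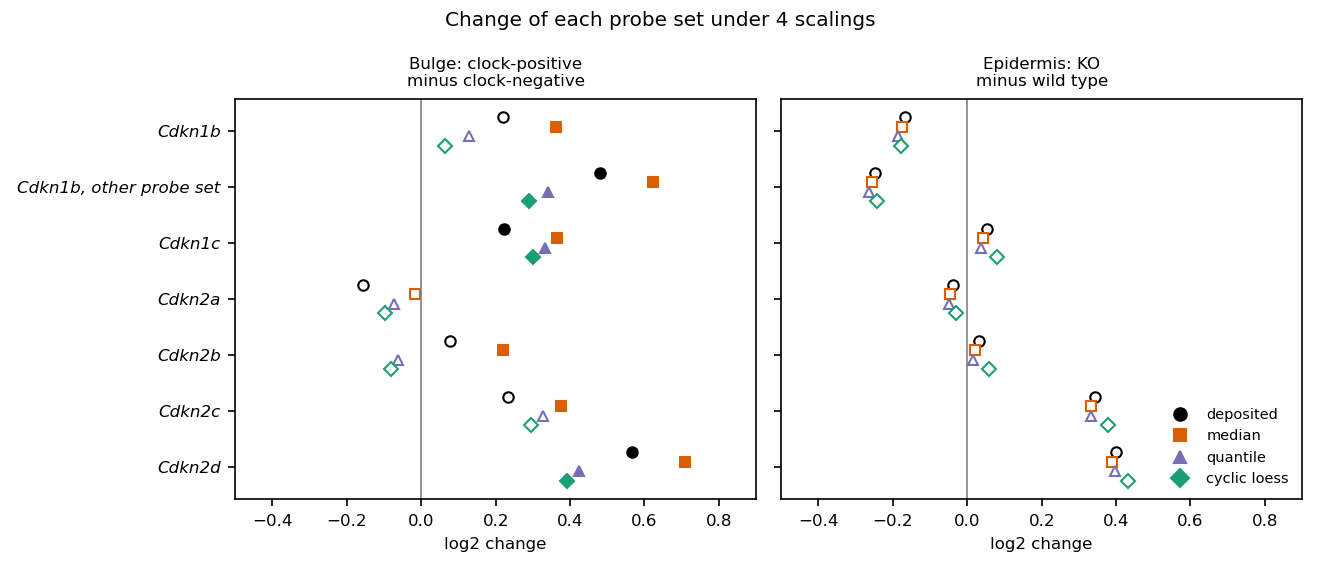
Log2 change of each CDK inhibitor probe set on the deposited scale and after median centring, quantile normalization and cyclic loess, for the bulge (left) and the IFE (right); filled points passed an adjusted p under 0.05. In the bulge Cdkn2d stays between 0.39 and 0.71 while Cdkn2b changes sign, and in the IFE no probe set is called under any of the 4 scalings.

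Other cell types moved between the same bulge groups. All 8 T cell markers tested were lower in clock-positive cells, and the summed level of the list, in log2 units, was 10.48 to 10.53 there against 11.45 to 11.62 in clock-negative cells. Summed levels take in every marker of a list on the array, also those too dim to be tested. They cover 10 myeloid, 12 root sheath and hair shaft, 8 melanocyte and 7 fibroblast markers. Of the Langerhans and other myeloid markers, 7 of 8 were lower (summed level 11.01 to 11.08 against 11.63 to 11.73). Of 9 markers of differentiated keratinocytes 5 were lower and 0 higher (14.58 to 14.62 against 14.82 to 14.85), while all 10 bulge stem cell markers were higher (14.41 to 14.43 against 13.79 to 13.85). The 6 endothelial markers were all higher (10.93 to 10.96 against 10.35 to 10.52). Of 10 markers of the inner root sheath and hair shaft 7 were lower and 2 higher (12.07 to 12.10 against 12.18 to 12.23), and of 6 melanocyte markers 5 were lower and 1 higher, with overlapping summed levels (10.05 to 10.10 against 10.07 to 10.19). Dermal fibroblast markers had 2 of 5 lower and 1 higher, again overlapping (10.89 to 10.94 against 10.85 to 10.93). Their part in the values of the inhibitors was not tested.

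The second comparison asks how the inhibitors differ in IFE basal cells that lack Bmal1. No member passed the test: 0 of 6 were called with limma, although 2 of 6, Cdkn2c and Cdkn2d, had an unadjusted p under 0.05 and KO values wholly above wild-type values. Of the 13957 genes tested 0.193% were called, 7.96% had an unadjusted p under 0.05, and 4.11% had KO values wholly above wild-type values. The median change of the 6 members was 0.04, beside -0.01 for all genes. Spread within groups was wider here than in the bulge, with a median SD over genes of 0.14 in wild-type and 0.16 in KO cells against 0.06 in clock-positive and 0.10 in clock-negative cells.

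Cdkn2d read 8.53, 8.96 and 8.86 on the wild-type arrays and 9.32, 9.22 and 9.00 on the KO arrays. The lowest KO array was just above the highest wild-type array. The change was 0.40 ± 0.14 (0.07 to 0.73), with an unadjusted p of 0.0241 and a limma adjusted p of 0.473, and 97.9% of genes lay below it. Over the alternatives run the change was positive throughout, from 0.27 without wild-type array 1 to 0.49 without KO array 3, and its lowest adjusted p was 0.096.

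For Cdkn2c, the wild-type arrays read 8.44, 8.57 and 8.57 and the KO arrays 9.06, 8.83 and 8.72. The groups were again apart, with KO array 1 the highest. The change was 0.34 ± 0.12 (0.07 to 0.62), with an unadjusted p of 0.0202 and a limma adjusted p of 0.45. Its lowest adjusted p over the alternatives was 0.073, after cyclic loess.

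The Cip/Kip genes gave intervals that included 0. Cdkn1b read 11.77, 11.62 and 11.53 in wild-type and 11.43, 11.55 and 11.45 in KO cells, overlapping through KO array 2 (change -0.17 ± 0.11, interval -0.41 to 0.08, limma adjusted p = 0.839). By its other probe set it read 10.38, 10.65 and 10.70 against 10.53, 10.35 and 10.12, with both groups widely spread (-0.25 ± 0.14, -0.57 to 0.08, adjusted p = 0.758). Cdkn1c read 7.33, 7.53 and 7.65 against 7.73, 7.52 and 7.42, and its groups covered much the same range (0.05 ± 0.13, -0.24 to 0.35, adjusted p = 0.981).

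Cdkn2a read 6.82, 7.22 and 7.10 in wild-type and 6.96, 7.02 and 7.04 in KO cells, so the KO arrays lay inside the wild-type range. Its mean level of 7.03 was near the lowest level tested, 6.83, and lay above 34.2% of all genes, dim ones included. Cdkn1c and Cdkn2b lay above 44.1% and 43.5% on the IFE arrays. The change of Cdkn2a was -0.04 ± 0.12 (-0.32 to 0.25; limma adjusted p = 0.992). Cdkn2b read 7.23, 7.65 and 7.58 in wild-type cells and 7.85, 7.30 and 7.40 in KO cells, with KO array 1 apart from the other two. The change was 0.03 ± 0.18 (-0.37 to 0.44; adjusted p = 0.995), the widest interval among the members.

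In the IFE, too, other cell types differed. All 6 T cell markers tested had an unadjusted p under 0.05, and 5 of them had lower values in KO cells, with a list median of -1.10. Cd3g, part of the CD3 complex, was at -2.66 ± 0.42 (limma adjusted p = 0.0662), and was called under 5 of the alternatives, with -3.24 and an adjusted p of 1.12e-05 without wild-type array 1. Thy1, the exception, was called at 1.19 ± 0.12 higher in KO cells (adjusted p = 0.0155), but not when any 1 of the KO arrays was left out (adjusted p from 0.0561 to 0.0989) or with the replicate number as a block (0.295). The summed level of the list, over 8 markers with the untested ones included, was 12.45 to 12.62 in KO and 11.76 to 12.60 in wild-type cells. Such a sum leans on the brightest markers. The highest percentile among the 8 was 98.8, 98.3 and 98.6 on the KO arrays and 91.9, 93.8 and 91.8 on the wild-type arrays. Their median percentile went the other way, at 37.4, 37.5 and 33.9 in KO against 48.7, 59.9 and 63.8 in wild-type cells. All 9 markers of differentiated keratinocytes had negative values, with a median of -0.36, although 0 were called and 3 had an unadjusted p under 0.05 with limma. Their summed level was 14.72 to 14.77 in KO and 14.84 to 14.97 in wild-type cells, without overlap. Summed levels were also apart, and lower in KO cells, for melanocyte markers (10.24 to 10.31 against 10.38 to 10.41) and dermal fibroblast markers (10.13 to 10.30 against 10.35 to 10.60). Yet 0 of these were called, and 1 of 5 and 1 of 4 tested had an unadjusted p under 0.05 with limma. Signs were mixed, with 2 positive and 3 negative, and 1 and 3. Most were dim: 0 of 8 and 1 of 7 lay above the array median on every KO array, and 2 of 8 and 2 of 7 on every wild-type array. Of the 8 myeloid markers tested 0 were called and 5 had an unadjusted p under 0.05 with limma, with summed levels of 10.51 to 10.79 in KO and 10.62 to 12.31 in wild-type cells. Their part in the Cdkn2c and Cdkn2d values was not tested.

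A member called in the bulge and not in the IFE is not thereby shown to differ between them, so the difference itself was fitted on all 12 arrays: clock-positive minus clock-negative, less wild type minus KO. A value of 0 means that a gene moved with the clock-positive state as it did with the wild type. Cdkn2d stood at 0.97 ± 0.17 (0.61 to 1.32; limma adjusted p = 0.00206) and Cdkn2c at 0.58 ± 0.18 (0.20 to 0.95; adjusted p = 0.0384). Both had a positive value because they read higher in clock-positive than in clock-negative cells but lower in wild-type than in KO cells. So 2 of 6 members were called higher and 0 lower, where 10.9% of 13956 genes were called higher and 6.48% lower, 17.4% in all. The 2 sets of arrays come from different tissues, ages and pool sizes, which cannot be told apart from the clock contrast.

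Cdkn2d kept its call in the difference under all 20 alternatives, from 0.82 after quantile normalization to 1.10 after median centring. Cdkn2c lost it when clock-positive array 1 or 2, clock-negative array 1 or 2, wild-type array 1 or 2, or KO array 1 or 2 was left out, with values from 0.47 to 0.60 and adjusted p from 0.0564 to 0.104. The others were not called. Cdkn1c was at 0.28 ± 0.14 (adjusted p = 0.173), Cdkn1b at 0.05 ± 0.15 by its main probe set and 0.23 ± 0.16 by the other, Cdkn2a at -0.19 ± 0.17 and Cdkn2b at 0.11 ± 0.20.

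**Figure D3:**
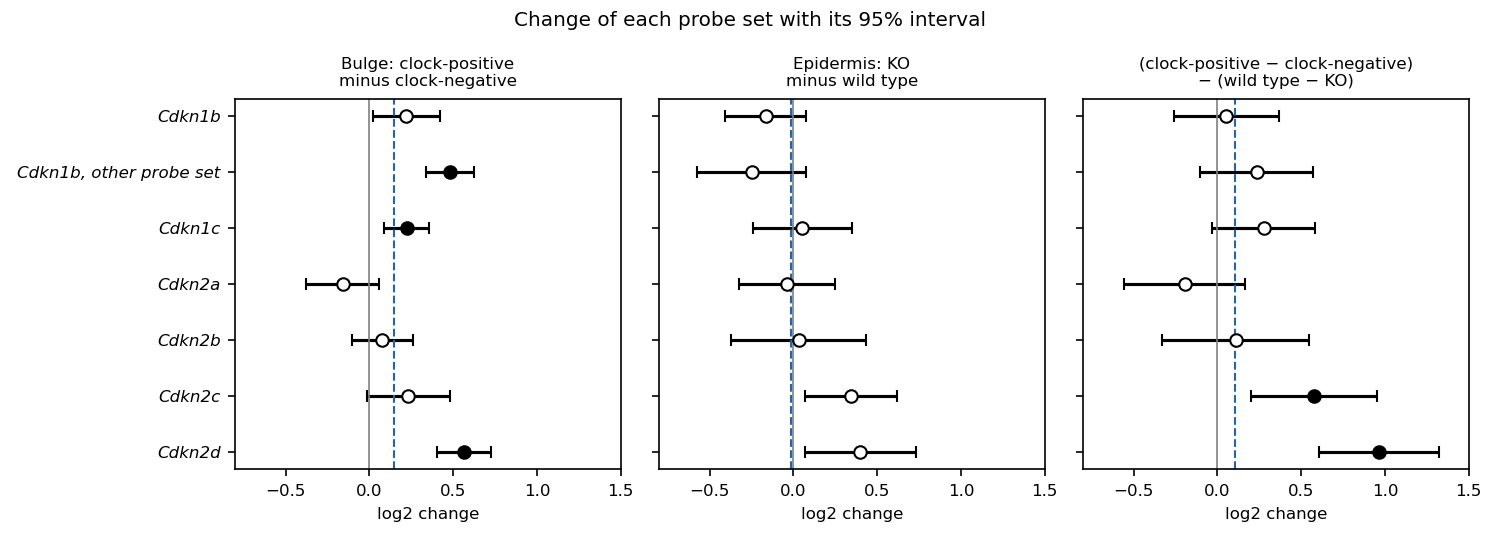
Log2 change of each CDK inhibitor probe set with its 95% interval in the bulge, in the IFE and in the difference between them; filled points passed an adjusted p under 0.05 and the dashed line is the median of all genes tested. Cdkn2d is filled at 0.57 in the bulge and at 0.97 in the difference, and Cdkn2c at 0.58 in the difference, while every IFE point is open.

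The partners of the inhibitors were read from 13 lists of their kinases, targets and regulators. Of the D-type cyclins and their kinases, which the Ink4 proteins oppose, 2 of 5 genes were higher and 1 lower in clock-positive cells. Ccnd3 was higher by 0.75 ± 0.07 and Cdk4 by 0.20 ± 0.06, and Ccnd2 fell by 0.26 ± 0.06; the call of Cdk4 was lost after quantile normalization and loess, and that of Ccnd2 after median centring. The later cyclins and kinases, which p27 and p57 bind, were listed together with regulators of these kinases. Of the genes tested from this list, 4 of 8 were higher and 1 lower. Ccna2 was higher by 0.61 ± 0.06, Ccnb2 by 0.46 ± 0.07 and Cdk1, the mitotic kinase, by 0.44 ± 0.06. For each list the array's own shares are the level to read it against: 45.2% higher and 18.3% lower on the deposited scale, 29.5% and 12.2% after quantile normalization, and 25.3% and 15.8% after loess. Under the latter pair the D-type list had 1 higher and 2 lower, and the later cyclins 4 and 1, then 3 and 2.

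Further down the pathway, 6 of 13 pocket proteins and E2F factors were higher and 0 lower. Rb1, the retinoblastoma gene, was higher by 0.48 ± 0.11, E2f2 by 0.36 ± 0.07 and Tfdp2, a partner of E2F factors, by 0.29 ± 0.07, the latter pair not called after loess. Of 20 E2F targets and proliferation genes, 12 were higher and 1 lower. They were led, beside Ccna2, by the mitotic motor Kif11 at 0.70 ± 0.08 and the kinase Aurkb at 0.52 ± 0.07. After quantile normalization the same list had 7 higher and 4 lower, and after loess 6 and 4. Pocket proteins and E2F factors then had 5 and 3 called higher.

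Regulators of p27 and p57 were read in a pair of lists. Of genes for their turnover 6 of 10 were higher and 0 lower, with Cks1b, a cofactor of the ligase that marks p27 for destruction, at 0.53 ± 0.07, the scaffold Cul1 at 0.39 ± 0.10 and the kinase Pim1 at 0.24 ± 0.07. After quantile normalization or loess 1 of 10 was called higher, where 29.5% and 25.3% of all genes were, and Cul1 and Pim1 were not called. Of their transcriptional regulators 8 of 12 were higher and 1 lower, with Hey1 at 0.46 ± 0.09, Akt1, a kinase that restrains forkhead factors, at 0.44 ± 0.06 and Myc at 0.35 ± 0.07. Quantile normalization left 5 of the 12 called higher and 0 lower, and loess 4 and 0, with Myc not called after loess.

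Polycomb genes, known for silencing Ink4-Arf, were higher in 10 of 16 cases and lower in 0, with Bmi1 at 0.65 ± 0.08, Cbx8 at 0.52 ± 0.07 and Rnf2 at 0.47 ± 0.07. This list too depended on scaling, where quantile normalization left 5 called higher and 2 lower, and loess 4 and 3, close to the shares of all genes. Of other Ink4-Arf regulators, 6 of 13 were higher and 2 lower, against 2 and 0 after quantile normalization and 1 and 1 after loess. Id1, which opposes Ets factors at Cdkn2a, was higher by 0.93 ± 0.07, the demethylase Kdm6b by 0.36 ± 0.06 and Smad4 by 0.21 ± 0.06, and after loess Kdm6b and Smad4 were not called. Downstream of ARF, 7 of 10 genes of the p53 branch were higher and 0 lower, and 4 of 10 were higher after quantile normalization or loess. Its leading genes Ccng1, Phlda3 and Sesn1, targets of p53, were at 0.62 ± 0.06, 0.62 ± 0.07 and 0.57 ± 0.08.

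Genes beside the members on the chromosome did not share one direction. Near Cdkn1c, on chromosome 7, 2 of 9 were higher and 2 lower, with Cd81 at 0.48 ± 0.06, Tssc4 at 0.31 ± 0.08 and Th at -0.41 ± 0.08; Tssc4 was not called after quantile normalization or loess. Near Cdkn2a and Cdkn2b, Elavl2 was at -0.48 ± 0.07, Mtap at 0.32 ± 0.08 and Klhl9, 25 coding genes away, at -0.12 ± 0.09 and not called, though it was called at -0.34 after loess (adjusted p = 0.0406). Of 11 imprinted growth genes, 6 were higher and 2 lower, led by Dlk1 at 0.99 ± 0.09, Sgce at 0.91 ± 0.08 and Igf2r at 0.49 ± 0.08. Of 7 senescence-associated genes, 2 were higher and 1 lower: Igfbp5 at 0.95 ± 0.06 and Glb1, the lysosomal galactosidase, at 0.20 ± 0.06 rose, and the chemokine Cxcl1 fell by 0.37 ± 0.09. Glb1 was not called after quantile normalization or loess. Among the genes named here for the bulge, which were picked from each list for their small p, 37 were called on the deposited scale and 26 of these under every scaling.

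**Figure D4:**
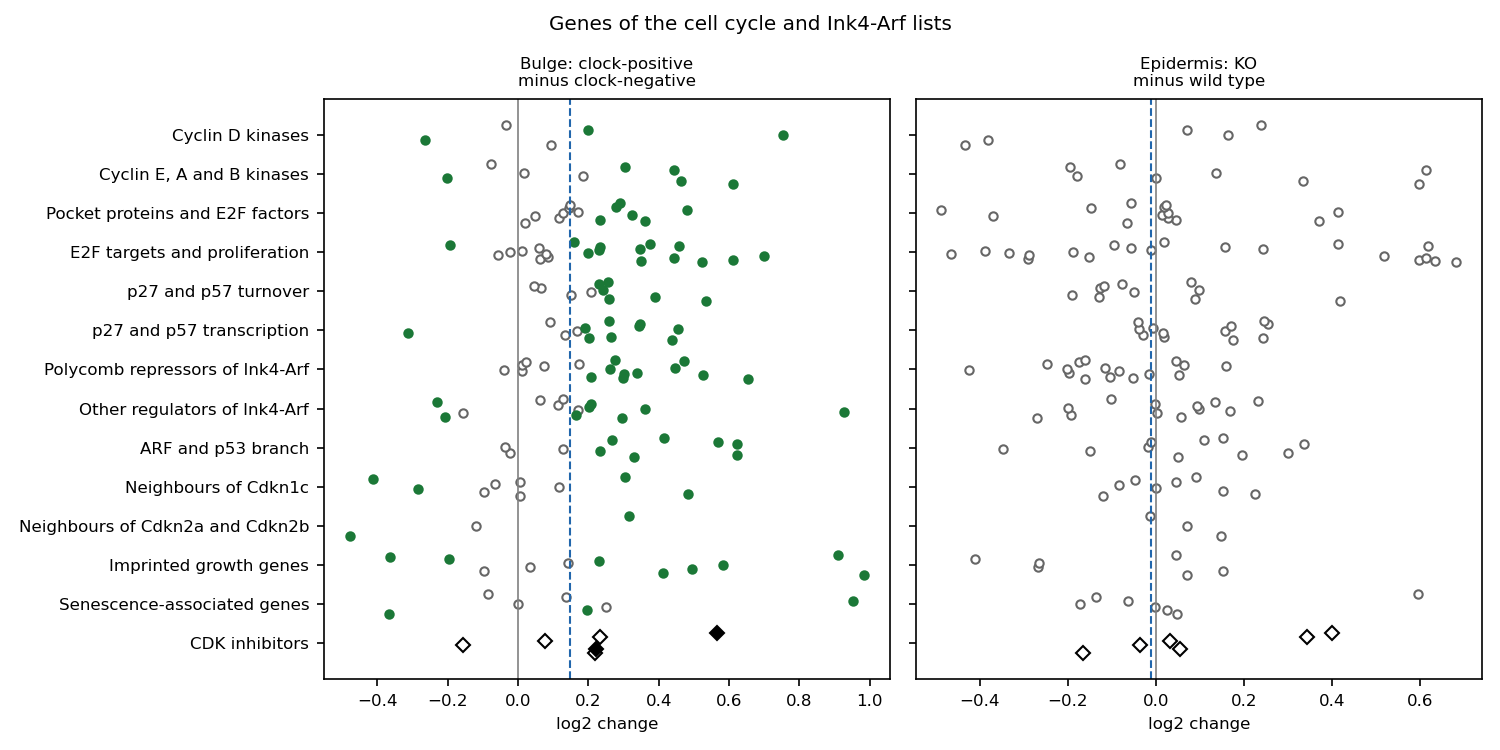
Log2 change of every tested gene of the 13 pathway lists and of the 6 CDK inhibitors (diamonds), in the bulge (left) and the IFE (right); filled points passed an adjusted p under 0.05 and the dashed line is the median of all genes tested. Most bulge lists have filled points on the right of 0, and all points of the IFE panel are open.

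In the IFE, limma called 0 genes of these 13 lists. Of 20 E2F targets and proliferation genes 9 had an unadjusted p under 0.05, in both directions, against 7.96% of all genes. Aurkb was at 0.68 ± 0.14, Cdk1 at 0.61 ± 0.12 and Ccna2 at 0.60 ± 0.12 (adjusted p = 0.164, 0.13 and 0.163), each with KO arrays above wild-type arrays. Ccnd1 was at -0.43 ± 0.19, Ccnd2 at -0.38 ± 0.11 and Cdk6 at 0.24 ± 0.11. Rb1, at -0.49 ± 0.12 (adjusted p = 0.226), and E2f5, at -0.37 ± 0.13, had KO arrays below wild-type arrays, and E2f8 was at 0.41 ± 0.15. Cks1b was at 0.42 ± 0.11 (adjusted p = 0.294), and the Polycomb partner Jarid2 at -0.42 ± 0.12 (adjusted p = 0.328). It was the 1 of 16 Polycomb genes with an unadjusted p under 0.05. The remaining lists were led by Mmp3 at 0.59 ± 0.15, Nnat at -0.41 ± 0.11, Mdm4 at -0.35 ± 0.13, Dmtf1 at -0.27 ± 0.13, Trp73 at 0.25 ± 0.15, Igf2 at 0.15 ± 0.10 and Elavl2 at 0.15 ± 0.10, with adjusted p from 0.269 to 0.851.

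In the difference fit, 8 of the 20 E2F targets and proliferation genes were called higher and 0 lower, where 10.9% of all genes were higher. Of the 8 genes tested from the list of later cyclins and kinases 3 were called higher and 0 lower. Of the 5 D-type cyclins and kinases 1 was higher and 1 lower. In the p53 branch 4 of 10 were called higher, and of the 16 Polycomb genes 1 was higher and 1 lower. Of each of the other 8 lists 0 to 2 genes were called higher. Medians over the 13 lists ran from -0.05 to 0.38, beside 0.11 for all genes, and 4 of them lay below that of all genes: other Ink4-Arf regulators (0.03), senescence-associated genes (0.04) and the neighbours of Cdkn1c (0.03) and of Cdkn2a and Cdkn2b (-0.05).

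Likeness between genes was measured by Pearson's r over the 12 arrays after taking off the mean of each set of 6, among 13100 genes tested in both sets, as a description in which the points share arrays and group structure. The genes most like Cdkn2d were Mmp14, a membrane-bound metalloproteinase (r = 0.990), the integrin Itga3 (0.987) and Ostc (0.982). Cdkn1c was most like Pip4k2b (0.981), Pithd1 (0.978) and Pltp (0.975), Cdkn1b like Pafah1b1 (0.941), Mettl5 (0.930) and Zmym2 (0.929), and Cdkn2b like Tango6 (0.956), C130036L24Rik (0.918) and Shpk (0.914). Cdkn2a was most like 5730507C01Rik (0.925), Epop (0.924) and Nanos3 (0.916), and Cdkn2c like Timm23 (0.903), Ufm1 (0.898) and Ppp1cc (0.892). Highest values out of so many genes are large for any gene over so few arrays.

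Between members, Cdkn2c and Cdkn2d moved together over the 6 IFE arrays (r = 0.92) and less so over the 6 bulge arrays (0.57). Cdkn1b and Cdkn2d went with each other in the bulge (0.75) and against each other in the IFE (-0.82). Cdkn2a and Cdkn2b, though neighbours, had 0.23 in the bulge and 0.43 in the IFE. These are descriptions over 6 arrays that span both groups of a set.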

How the data were processed

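The members, pathway lists and marker lists were chosen with earlier results of these data known. The deposited values are log2 intensities; the submitters' processing notes name RMA as the authors' tool, whose version and settings are not given in the sources used here. Per the labels' protocols, RNA was amplified as a whole transcriptome before labelling. Probe sets are filled differently in the bulge and IFE columns, which appear to have been normalized separately, so levels are not compared across them. No pair of columns was identical, and 0 columns of values were left unused.

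Each gene was read by 1 probe set (measured on all 12 arrays preferred, then the highest mean). The dimmest 30% of genes by mean level were dropped per comparison; all 6 members passed, in each of the 3 comparisons. Group means were fitted in R 4.3.3 by limma 3.58.1 (lmFit, then eBayes, no trend). Tests were two-sided, p-values were adjusted by Benjamini-Hochberg over the whole table, and a call required less than 0.05. The second Cdkn1b probe set was tested in a fit over every probe set. A ± gives the fit's standard error except where SD is written, and intervals are 95%. The scripts were tested on simulated data. An array has no read depth, so the number of arrays limits the precision. By Entrez identifier, 21698 probe sets were found in RefSeq's gene table, with 0 symbols changed. Genes named were the members, up to 3 genes with the smallest p in each pathway list of the bulge and IFE comparisons, checks of the labels and, for each member, the 3 most alike genes; Thy1 and Cd3g were named after their values were seen. Alternatives were 3 scalings, other filters on dim genes, every probe set, a variance trend, the replicate number as a block, the spread from all 12 arrays and leaving out each array; the fits of the second Cdkn1b probe set were added after its values were seen.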

Additional observations from a re-analysis of the deposited data

Results flagged for a closer look

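For a pair of CDK inhibitors the change between clock-positive and clock-negative bulge cells differed from that between wild-type and Bmal1 KO epidermis in a test of the difference itself (limma on 12 arrays, Benjamini-Hochberg adjustment). For Cdkn2d the difference was 0.97 ± 0.17 on the log2 scale (adjusted p = 0.00206), made of 0.57 higher in clock-positive cells and 0.40 higher in KO cells. Of these the change in KO cells was not called alone (limma adjusted p = 0.473). For Cdkn2c the difference was 0.58 ± 0.18 (adjusted p = 0.0384), made of 0.23 and 0.34, of which neither was called alone. The Cdkn2c difference lost its call under 9 of the 20 alternatives. The bulge and IFE samples come from different tissues, ages and pool sizes.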

How the results depend on the processing

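Over the alternatives run, Cdkn2d kept its direction and its call in the bulge and in the difference, and no member was called in the IFE. In the bulge 8866 genes were called, against 10283 after median centring, 5809 after quantile normalization and 5739 after cyclic loess. The count was 11849 with no filter on dim genes, 5301 with the spread from all 12 arrays and 7129 to 9826 without 1 array. With no filter on dim genes 31.5% were higher and 27.9% lower. Members called there were 2, against 5 after median centring, 1 with the spread from all 12 arrays and 2 to 4 without 1 array. In the IFE 27 genes were called, against 49 after quantile normalization, 85 after cyclic loess, 16 with no filter, 47 with the lowest 50% left out, 57 with a variance trend, 407 with the spread from all 12 arrays and 7 to 103 without 1 array. In the difference 2422 were called, against 1595 with the lowest 50% left out and 1191 to 4188 without 1 array; members called were 2, and 1 to 2 without 1 array.

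Values that changed sign were, in the bulge, Cdkn2b (-0.062 after quantile normalization, -0.080 after loess), Klhl9 (0.021 after median centring) and Glb1 (-0.020 after loess); in the IFE, Mtap (0.023 after loess); and in the difference, Cdkn1b (-0.057 after quantile normalization, -0.114 after loess) and Cdkn2b (-0.048 and -0.023). Without 1 array, ranges that crossed 0 were -0.0020 to 0.13 for Cdkn2b in the bulge, -0.035 to 0.127 for Cdkn1c, -0.150 to 0.051 for Cdkn2a, -0.133 to 0.141 for Cdkn2b and -0.109 to 0.071 for Mtap in the IFE, and -0.033 to 0.120 for Cdkn1b and -0.055 to 0.219 for Cdkn2b in the difference. The cause was not tested. With the lowest 50% of genes left out, Cdkn1c and Cdkn2a gave no value in the bulge, the IFE or the difference. Under that filter Cdkn2c gave none in the bulge and Cdkn2b none in the IFE.

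Deviations from the group means of same-numbered arrays correlated at 0.24, 0.26 and -0.06 in the bulge and at -0.44, 0.04 and -0.52 in the IFE. In the bulge numbers 1 and 2 thus deviated together and number 3 did not, so the requirement that every pair exceed 0.1 was not met in either set. The highest IFE correlations joined unlike numbers, with 0.54 for KO array 3 and wild-type array 1 and 0.43 for KO array 1 and wild-type array 3. For numbers 1 and 3 the IFE block therefore joins arrays that deviated in opposite directions. With the replicate number as a block, 3 genes were called in the IFE and 687 in the difference, where 1 member, Cdkn2d, was called and Cdkn2c had an adjusted p of 0.136; in the bulge Cdkn1b was called (adjusted p = 0.0165).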
